A study of Homo sapiens with 10 samples.

Results

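The thioredoxin and peroxiredoxin system is represented here by 10 genes of the 28380 in the count table, found by their symbols: TXN, TXNRD1, TXNRD2, TXNRD3, SRXN1, PRDX1, PRDX2, PRDX3, PRDX5 and PRDX6. All 10 passed the filter on low counts, which left 13378 genes for testing. Their expression was measured by RNA-seq in RPE-1 cells, an established human retinal pigment epithelial line immortalized with telomerase. One group of 5 replicates received 25 µM sulforaphane (SFN), an isothiocyanate from cruciferous vegetables, for 4 h, and the other 5 received the vehicle DMSO for the same time in complete medium. The dose and the medium are those of the study's methods. RPE-1 is a single cultured line, and the labels do not say whether replicates came from separate cultures, so p-values measure only the spread between these samples. Total counts ranged from 15689294 to 20666692 in DMSO and from 12375860 to 17308706 in SFN. Of the markers of mature pigment epithelium, RPE65, RLBP1 and TTR reached at most 4 counts in a library. BEST1, another such marker, was read at 18.8 ± 13.7 CPM (SD, n = 5) in DMSO and 42.4 ± 36.7 in SFN. Its adjusted p by edgeR was 0.16, and 0.0096 without DMSO replicate 1. Its highest values were in DMSO replicate 1 (41.8) and SFN replicate 2 (107). Whether reads of a neighbouring gene were counted for BEST1 was not examined. The pigment cell factors MITF and OTX2 were present but fell with SFN, MITF from 50.8 ± 4.95 to 23.4 ± 2.78 CPM (adjusted p = 5.3e-05 by edgeR) and OTX2 from 14.0 ± 2.14 to 9.01 ± 0.286 (adjusted p = 0.0029 by edgeR). The epithelial keratins KRT8 and KRT18 were present in both groups, but the epithelial marker EPCAM reached at most 2 counts in a library. VIM, also among the markers read, had a mean of 5688 CPM in DMSO and 6631 in SFN, above KRT8 at 383 and 449. TJP1 had 119 and 110 CPM. The pigment cell marker PMEL reached at most 29 counts, and TYR was not in the count table. The keratins alone thus do not show an epithelial state. The part of these marker changes in the results below was not tested. In bulk RNA, fewer cells that express a gene and less RNA per cell cannot be told apart.

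In this system NADPH feeds electrons to thioredoxin reductases, selenoproteins that keep the small protein thioredoxin reduced. Thioredoxin in turn reduces most peroxiredoxins, abundant enzymes that destroy hydrogen peroxide through a reactive cysteine. Sulfiredoxin repairs peroxiredoxins whose cysteine has been overoxidized. Several of these genes are textbook targets of NRF2, a transcription factor activated by SFN that binds antioxidant response elements in promoters. The comparison addresses which parts of the system responded within 4 h.

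The promoter letters are shown first, as a description only. RefSeq promoters (GRCh38.p14) were at hand for 8 of the 10 genes, 12 promoters in all. PRDX1 and PRDX6 had no entry. In the 250 bases before each start, 4 sets of letters were searched on both strands: TGACNNNGC (the core of the antioxidant response element), TGACTCA (an AP-1 site), GAANNTTC (the core of a heat shock element) and TGATGNAAN (the core of an ATF4 element). Some TGACTCA matches are also TGACNNNGC matches, because the motifs share their first letters. TXNRD1, encoding the cytosolic reductase, held the antioxidant response element core before both of its RefSeq starts, and the other 7 genes with an entry held none of the 4. Among all 35116 promoters, 10.9% held that core, 4.20% TGACTCA, 5.78% GAANNTTC and 3.13% TGATGNAAN. The core was thus found at 1 of 8 genes, or before both starts of that gene among 12 promoters. The 10.9% is a share of promoters, and the share of genes was not computed. Counts this small do not set the members apart. The stretches around the matches follow, read on the plus strand, which is the coding strand of TXNRD1, with the match in capitals. The first lies at chr12:104215620-104215748 and its match begins 99 bases before the start at 104215779. The second lies at chr12:104286870-104286998, where the match is on the opposite strand and begins 102 bases before the start at 104287032.
TXNRD1 first start: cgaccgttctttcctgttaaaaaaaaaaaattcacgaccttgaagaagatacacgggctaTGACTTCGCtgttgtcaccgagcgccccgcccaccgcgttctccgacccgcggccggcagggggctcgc
TXNRD1 second start: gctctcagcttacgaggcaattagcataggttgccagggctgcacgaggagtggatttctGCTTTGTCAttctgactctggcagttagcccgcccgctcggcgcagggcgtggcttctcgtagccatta
A match describes letters, not a site in use, and the absence of one says nothing about NRF2 at these genes.

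One library has to be described before the values. In DMSO replicate 1, the length slope, the change in log2 CPM per doubling of canonical transcript length relative to the mean of all libraries, was -0.271. CPM here are counts scaled to library size after TMM normalization. The slope lay between 0.0872 and 0.148 in the other 4 DMSO replicates. In SFN it was -0.183 in replicate 2, between -0.0574 and -0.0355 in replicates 1, 3 and 4, and 0.109 in replicate 5. Thus only SFN replicate 5 had a slope within the range of DMSO replicates 2 to 5, and slope and treatment could be separated only in part. The members differ in the length of their canonical transcript, from 737 bases for TXN to 3860 for TXNRD1, and the fold changes of the members are given with and without DMSO replicate 1.

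By edgeR's quasi-likelihood test over all 10 libraries, 0 of the 10 members rose and 0 fell at an adjusted p under 0.05, against 9.07% and 13.9% of all tested genes. At an unadjusted p under 0.05, 2 members (TXNRD1 and PRDX6) were higher and 0 lower, against 1948 and 2676 of all 13378 tested genes. DESeq2 called the same 2 increased, against 12.2% of all genes. Without DMSO replicate 1, 7 of 10 rose and 0 fell by edgeR, against 22.5% and 23.5% of all genes in that fit (46.1% in either direction). The 7 were TXN, TXNRD1, PRDX1, PRDX2, PRDX3, PRDX5 and PRDX6. At an unadjusted p under 0.05 the members gave 0 decreases over all libraries. DESeq2 gave 0 with all libraries, against 2121 of all genes, and 0 without DMSO replicate 1, against 3176. The same 7 were called over all libraries by limma-voom with sample quality weights, which called 29.0% of all genes increased, whereas quantile normalized limma-voom called PRDX6 alone, against 9.84%. In 0 of the members did all SFN libraries exceed all DMSO libraries (8.78% of all genes did), and without DMSO replicate 1 they did for PRDX1, PRDX3 and PRDX6, 3 of 10, against 16.2%. The median log2 fold change of the members was 0.35, beside -0.028 for all tested genes, and 0.58 without that library, beside -0.0036. Since the members were chosen with earlier results of these data known, these medians carry no test.

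**Figure D1:**
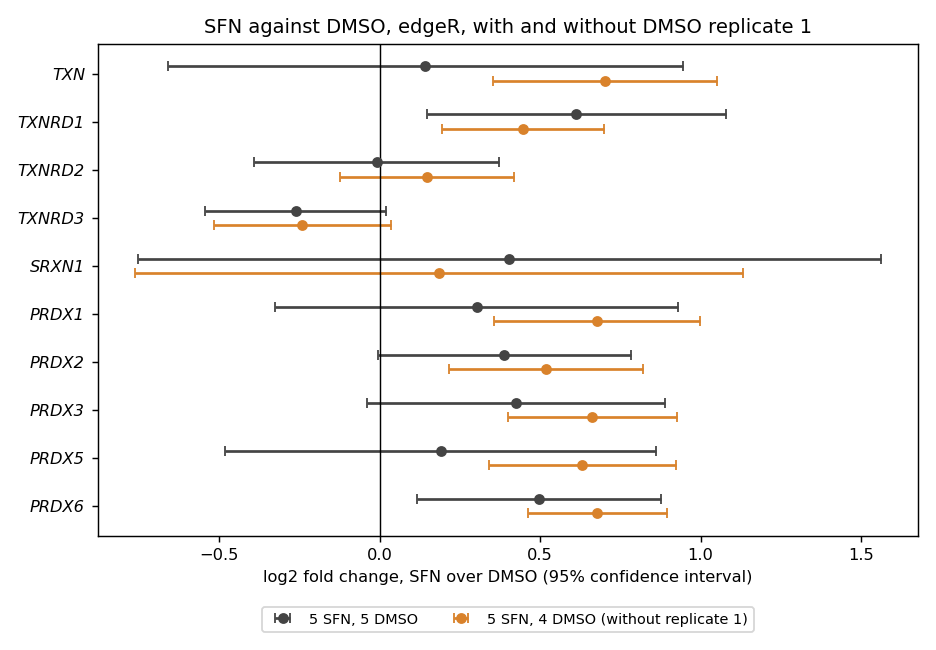
Log2 fold change of SFN over DMSO (x axis, bars are 95% confidence intervals) for each member by edgeR, over all 10 libraries (dark) and without DMSO replicate 1 (orange). The PRDX6 value moves from 0.50 to 0.68 and that of TXN from 0.14 to 0.70, while TXNRD1 moves from 0.61 to 0.45.

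TXNRD1 (chromosome 12 of GRCh38, 104215779 to 104350307) encodes the cytosolic thioredoxin reductase, the entry point of electrons from NADPH. Its CPM in DMSO replicates 1 to 5 were 429, 915, 850, 955 and 956, and in SFN replicates 1 to 5 they were 1301, 925, 1240, 1299 and 1517. All SFN libraries but replicate 2 lay above every DMSO library, and DMSO replicate 1 lay below all the rest. The mean was 821 ± 223 CPM (SD, n = 5) in DMSO and 1256 ± 213 in SFN. The log2 fold change was 0.61 (standard error, SE, 0.21, adjusted p = 0.058 by edgeR), just short of the threshold. Without DMSO replicate 1 it was smaller, 0.45 (SE 0.12), but past the threshold (adjusted p = 0.0071 by edgeR). Leaving out SFN replicate 2 in place of it gave 0.71, which was also past the threshold.

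TXNRD2, the mitochondrial reductase (chromosome 22, 19875517 to 19941820), did not pass the test in any of 25 alternative analyses. It had 15.7, 11.1, 9.78, 9.16 and 8.76 CPM in DMSO replicates 1 to 5 and 10.8, 13.3, 10.3, 10.5 and 9.32 in SFN. The groups overlapped almost completely, at 10.9 ± 2.82 and 10.8 ± 1.48 CPM (SD, n = 5). The interval of its log2 fold change ran from -0.39 to 0.37, and from -0.12 to 0.42 without DMSO replicate 1. Its direction was not settled, being positive in 12 of the 25 alternatives.

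TXNRD3, a reductase with an added glutaredoxin domain (chromosome 3, 126571779 to 126655124), had the only fold change among the members that was negative in all 25 alternatives. DMSO libraries held 10.5, 9.16, 10.4, 9.88 and 9.18 CPM and SFN libraries 8.52, 8.63, 9.38, 8.10 and 6.35. Only SFN replicate 3 reached into the DMSO range. The difference did not pass the test (log2 fold change -0.26, SE 0.13, adjusted p = 0.18 by edgeR) and was -0.24 without DMSO replicate 1, and over the alternatives its adjusted p ranged from 0.041, with the length slope in the model, to 0.63.

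Ratios of counts within a library do not depend on how libraries are scaled, so the reductases were also set against each other. The log2 ratio of TXNRD1 to TXNRD3 was 6.32 ± 0.563 (SD, n = 5) in DMSO and 7.25 ± 0.425 in SFN, and every SFN library exceeded every DMSO library. By an exact two-sided permutation test this difference of 0.92 had p = 0.0079, the smallest that 5 against 5 allows. Its adjusted p was 0.063 over the 8 pairs compared, which does not pass the threshold. Without DMSO replicate 1 the difference was 0.68 (exact permutation test, adjusted p = 0.063). Such ratios can still vary with the length slope, since the transcripts differ in length. Against TXNRD2, the TXNRD1 ratio differed by 0.64 (exact permutation test, adjusted p = 0.42), and by 0.28 without DMSO replicate 1, with SFN replicate 2 (6.12) inside the DMSO range of 4.77 to 6.77. For TXNRD2 to TXNRD3 the difference was 0.29 (exact permutation test, adjusted p = 0.42), and 0.40 without that library. None of the 8 pairs passed after adjustment, with or without DMSO replicate 1, and before adjustment 1 did so over all libraries and 4 without that library. A pair that alone reached the smallest p could not pass after adjustment over the 8.

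TXN (chromosome 9, 110243810 to 110256507) encodes cytosolic thioredoxin itself. In DMSO it had 531, 177, 142, 154 and 150 CPM in replicates 1 to 5, and in SFN 243, 370, 252.4, 238 and 172. DMSO replicate 1 was 3.40 times the mean of the other DMSO libraries and higher than any SFN library. All SFN libraries but replicate 5 exceeded DMSO replicates 2 to 5, and replicate 5 lay among those. The fitted log2 fold change was 0.14 (SE 0.37, adjusted p = 0.83 by edgeR) over all libraries and 0.70 (SE 0.16, adjusted p = 0.0032 by edgeR) without that library, a 1.63-fold difference. Against TXN2, which encodes mitochondrial thioredoxin, the log2 ratio of TXN was 3.01 ± 0.442 in DMSO and 3.12 ± 0.146 in SFN (exact permutation test, adjusted p = 0.89). Without DMSO replicate 1 every SFN library was above the rest of DMSO in this ratio, by 0.29 on average (exact permutation test, adjusted p = 0.063).

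Among the typical 2-Cys peroxiredoxins, PRDX1 and PRDX2 are cytosolic and PRDX3 is mitochondrial. PRDX1 (chromosome 1, 45510914 to 45542732) had 522, 211, 206, 204 and 210 CPM in DMSO and 332, 463, 336, 313 and 224 in SFN. DMSO replicates 2 to 5 lay between 204 and 211 CPM, all 5 SFN libraries lay above them, and DMSO replicate 1 lay above everything. Its log2 fold change was 0.30 (adjusted p = 0.51 by edgeR), and without that library 0.68 (SE 0.15, adjusted p = 0.0023 by edgeR).

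PRDX2 (chromosome 19, 12796820 to 12801800) had 69.4, 48.3, 48.7, 45.7 and 42.6 CPM in DMSO and 64.0, 90.6, 66.1, 65.9 and 47.1 in SFN. Here DMSO replicate 1 was exceeded by SFN replicate 2, and SFN replicate 5 fell among DMSO replicates 2 to 5. The log2 fold change was 0.39 (SE 0.18, adjusted p = 0.15 by edgeR), and 0.52 without DMSO replicate 1 (adjusted p = 0.0086 by edgeR).

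PRDX3 (chromosome 10, 119167720 to 119178812) had 231, 122, 103, 119 and 138 CPM in DMSO and 186, 246, 192, 180 and 154 in SFN. Each SFN library exceeded DMSO replicates 2 to 5. Its log2 fold change was 0.43 (SE 0.21, adjusted p = 0.18 by edgeR), and 0.66 without DMSO replicate 1 (SE 0.12, adjusted p = 0.00066 by edgeR). In the ratio of PRDX1 to PRDX3 the groups differed by -0.091 on the log2 scale (exact permutation test, adjusted p = 0.71), and by -0.015 without DMSO replicate 1. The PRDX1 to PRDX2 ratio differed by -0.00045 over all libraries and by 0.15 without DMSO replicate 1 (exact permutation test, adjusted p = 1 and 0.095). In neither ratio was a difference between these peroxiredoxins detectable against the spread of the libraries.

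PRDX5, an atypical 2-Cys enzyme found in mitochondria, peroxisomes and cytosol, lies on chromosome 11 from 64318121 to 64321811. It had 527, 214, 180, 189 and 164 CPM in DMSO and 292, 368, 302, 287 and 205 in SFN. As for TXN, DMSO replicate 1 was above all SFN libraries. The log2 fold change was 0.19 (adjusted p = 0.72 by edgeR), and 0.63 without that library (adjusted p = 0.0019 by edgeR).

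PRDX6, the 1-Cys peroxiredoxin, which glutathione rather than thioredoxin reduces and which also acts on phospholipids, lies on chromosome 1 from 173477330 to 173488815. It had 268, 157, 146, 160 and 167 CPM in DMSO and 242, 297, 272, 251.6 and 205 in SFN. Apart from DMSO replicate 1, which overlapped the SFN libraries, the highest DMSO value was 167 and the lowest SFN value 205. The mean was 180 ± 49.8 CPM (SD, n = 5) in DMSO and 254 ± 34.6 in SFN. The log2 fold change was 0.50 (SE 0.17, adjusted p = 0.061 by edgeR) and 0.68 without DMSO replicate 1 (SE 0.10, adjusted p = 1.1e-04 by edgeR), the smallest adjusted p of the members in that fit. PRDX6 passed the threshold in 11 of 25 alternatives, the most of any member. The log2 ratio of PRDX1 to PRDX6 differed by -0.14 between the groups (exact permutation test, adjusted p = 0.71), and by -0.029 without DMSO replicate 1.

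SRXN1 encodes sulfiredoxin and lies on chromosome 20 from 646615 to 653200. It was read very thinly, with 11, 23, 55, 51 and 73 counts in DMSO and 73, 14, 21, 40 and 87 in SFN. These are 0.685, 1.05, 3.07, 3.07 and 4.32 CPM in DMSO and 4.35, 1.21, 1.56, 2.70 and 6.14 in SFN. Within each group the libraries differed by more than the groups did, and the log2 fold change of 0.40 had an interval from -0.75 to 1.56 (adjusted p = 0.65 by edgeR). It was 0.18 without DMSO replicate 1, with an interval from -0.76 to 1.13. In GENCODE 44, 90.7% of the bases of its transcript, and 489 of its last 500, are also exons of another Ensembl gene on the same strand, AL121758.1, which had at most 2 counts in a library. Reads in those bases belong to both annotated genes. How such reads were treated is not given in the sources used here, so the SRXN1 level is uncertain. Its log2 ratio to PRDX1, the substrate pair of the repair reaction, differed by 0.061 (exact permutation test, adjusted p = 1), and by -0.58 without DMSO replicate 1.

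Other members share exons with neighbours only on the opposite strand, where the use of strand in counting is not given. PRDX1 shares 364 of its last 500 bases with MMACHC, which had between 203 and 948 counts, against between 3176 and 8382 for PRDX1. PRDX2 shares 200 of its last 500 with a long non-coding RNA of at most 138 counts, against at least 667 for PRDX2. Processed copies of TXN, PRDX1 and PRDX3 that were listed under a pseudogene name had at most 6 counts in any library.

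Most members were at an extreme of their group in a library with an extreme length slope. An association within groups was not tested. For 8 of the 10 members no DMSO library was higher than replicate 1, and for the other 2, TXNRD1 and SRXN1, none was lower. SFN replicate 2 was the highest SFN library for 7 members, and SFN replicate 5 was the lowest for 8. TXNRD3, with a transcript of 2921 bases, was highest in DMSO replicate 1 and lowest in SFN replicate 5, like the shorter members and unlike TXNRD1 and SRXN1. The shares of all genes with these extremes were not computed. TXN was 2.15 times as high in SFN replicate 2 as in SFN replicate 5, whereas TXNRD1 was 0.610 times as high. The reductase and its substrate thus ran in opposite directions among libraries of the same treatment. The part of the length slope in the group differences of the members cannot be fully told apart from treatment.

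**Figure D2:**
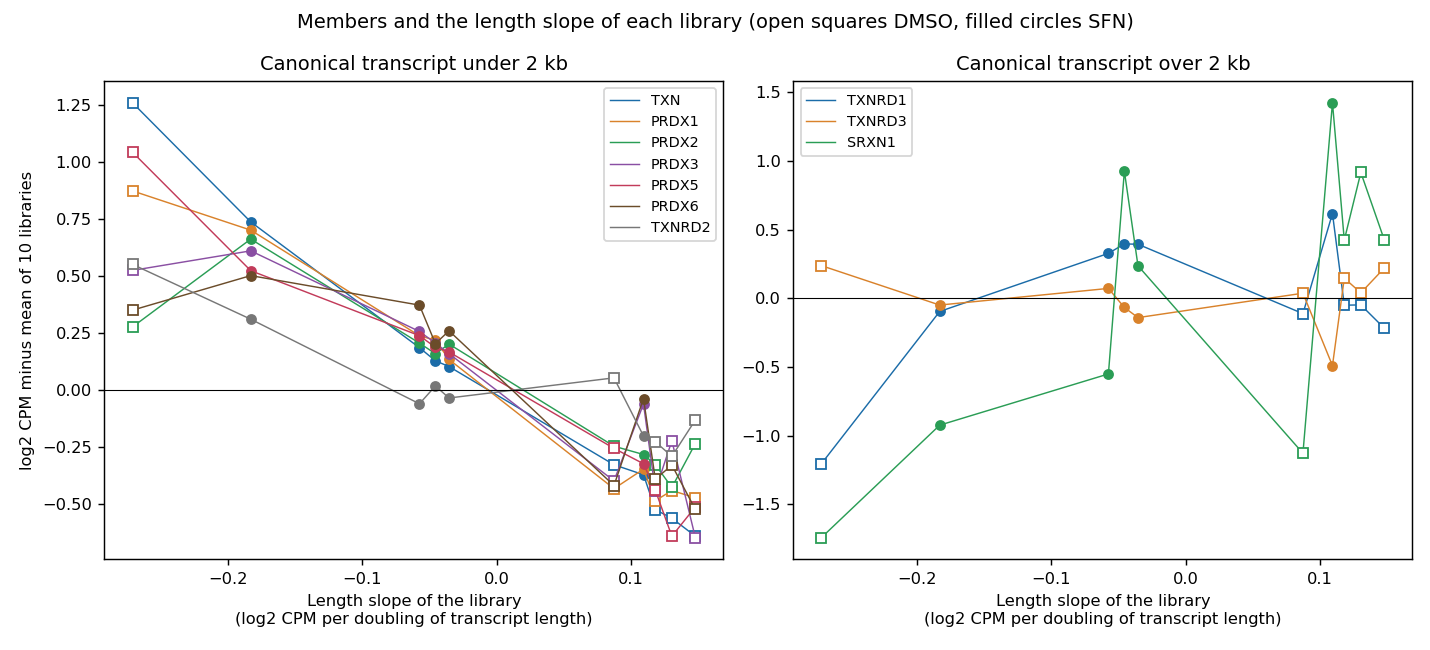
Log2 CPM of members relative to their mean over 10 libraries (y axis) against the length slope of each library (x axis, log2 CPM per doubling of transcript length), for shorter transcripts (left) and longer ones (right); open squares are DMSO and filled circles SFN. TXN, PRDX1 and PRDX5 are highest in DMSO replicate 1 (slope -0.271) and below their mean in DMSO replicate 3 (slope 0.148), whereas TXNRD1 is lowest in DMSO replicate 1.

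SFN replicate 5 allows a comparison at a matching slope, though with 1 library and so no test. Against DMSO replicates 2 to 5 it was above the range for 5 members (TXNRD1, SRXN1, PRDX1, PRDX3 and PRDX6), inside it for 4 (TXN, TXNRD2, PRDX2 and PRDX5) and below it for TXNRD3. The share of all tested genes above or below that range was not computed, so these counts do not set the members apart. It exceeded their mean log2 CPM by 1.26 for SRXN1, 0.72 for TXNRD1, 0.38 for PRDX6 and 0.37 for PRDX3, but by only 0.11 for PRDX1. TXN exceeded it by 0.14.

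When the length slope entered the edgeR model as a covariate, 5 of the 10 members rose and 1 fell. In that fit 24.6% of all tested genes rose, and 3431 of 13378 fell. TXNRD1 then had the strongest call (log2 fold change 0.88, adjusted p = 1.5e-08 by edgeR), followed by PRDX6 (0.36, adjusted p = 1.6e-04 by edgeR) and PRDX3 (0.26, adjusted p = 0.0069 by edgeR). SRXN1 (1.08, adjusted p = 0.012 by edgeR) and PRDX2 (0.22, adjusted p = 0.040 by edgeR) were also called increased, and TXNRD3 decreased (-0.31, adjusted p = 0.041 by edgeR). TXN, PRDX1 and PRDX5 were at -0.053, 0.090 and 0.010 in this fit, none past the threshold. The slope was computed from these same counts and is lower in most SFN libraries than in DMSO replicates 2 to 5. The covariate thus also takes up part of any treatment effect on short transcripts, and it shifts the values of long ones. Without the covariate TXNRD1, SRXN1 and TXNRD3, whose transcripts are longer, were at 0.61, 0.40 and -0.26, none past the threshold. With the covariate and without DMSO replicate 1, TXNRD1, SRXN1, PRDX3 and PRDX6 remained called of the 5 (15.9% of all genes increased), and PRDX2 (-0.012) and TXNRD3 (adjusted p = 0.074 by edgeR) did not.

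**Figure D3:**
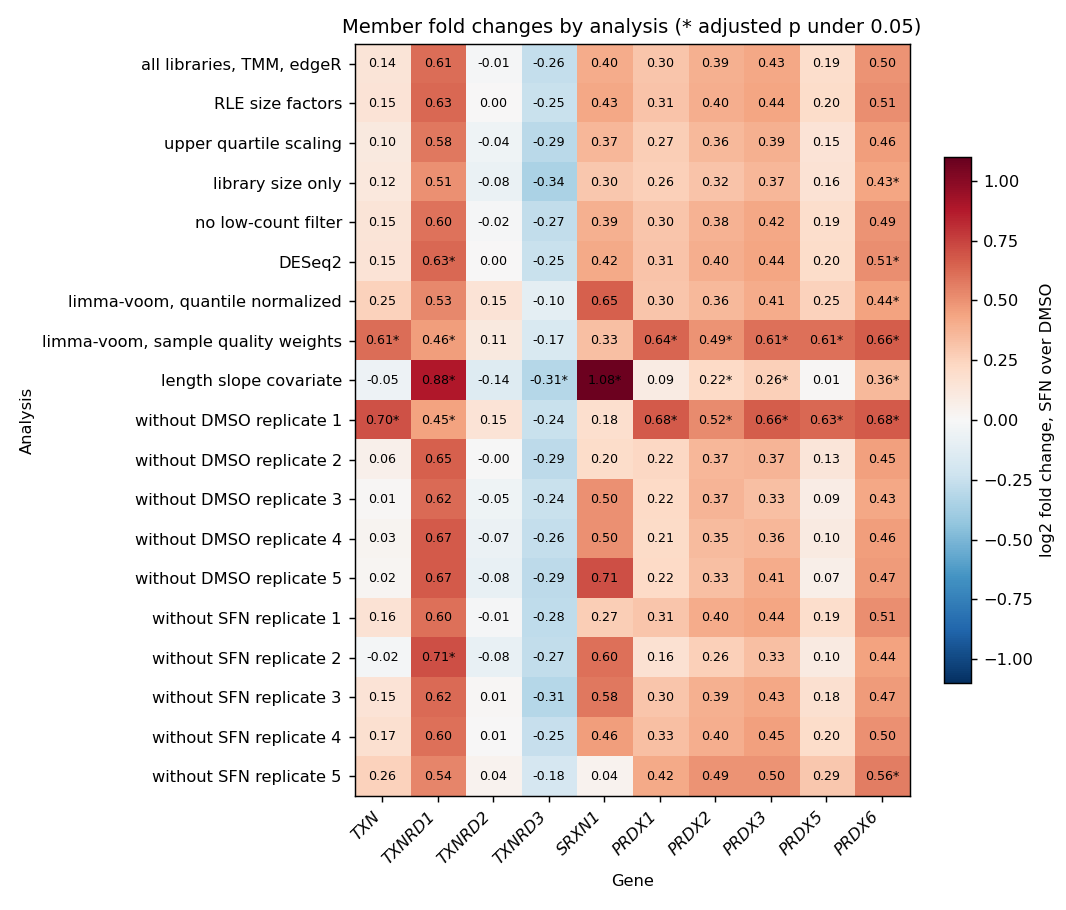
Log2 fold change of SFN over DMSO for each member (columns) under the analyses named in the rows, colored from blue (lower in SFN) to red (higher), with an asterisk at an adjusted p under 0.05. The row without DMSO replicate 1 has 7 calls and the row with the length slope 6, and TXNRD1, PRDX2, PRDX3 and PRDX6 are called in both.

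The genes around the system were taken from lists of its partners, of glutaredoxins and of NRF2 genes, 85 in all, of which 78 were tested. By edgeR, 20 of them rose and 2 fell, against the same 9.07% and 13.9% of all genes, and without DMSO replicate 1 the counts were 37 and 5, against 22.5% and 23.5% of all genes in that fit. The first list mixed the inhibitor TXNIP, the relatives TXN2 and PRDX4, and thioredoxin-like genes. Among its 7 tested genes 1 rose and 1 fell, and without that library 5 and 2. TXNIP, the protein that binds and inhibits thioredoxin, fell from 8.36 ± 1.78 to 0.555 ± 0.191 CPM (SD, n = 5). TXNL4B, a thioredoxin-like protein of the spliceosome, rose from 13.2 ± 0.951 to 24.05 ± 1.66 CPM (log2 fold change 0.87, adjusted p = 9.3e-05 by edgeR). TXN2 and PRDX4, the peroxiredoxin of the endoplasmic reticulum, resembled TXN: their log2 fold changes were 0.18 and 0.20 over all libraries and 0.39 and 0.47 without DMSO replicate 1, where both passed the threshold.

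Of 14 proteins with thioredoxin domains or in disulfide exchange, 2 rose and 0 fell by edgeR (4 and 0 at an unadjusted p under 0.05, 3 and 0 by DESeq2), and without DMSO replicate 1, 6 rose. TXNDC12, a thioredoxin-like protein of the endoplasmic reticulum, rose from 14.3 ± 3.19 to 28.7 ± 4.44 CPM (log2 fold change 0.998, adjusted p = 0.0013 by edgeR), and TMX2 by 0.42 on the log2 scale (adjusted p = 0.0067 by edgeR). They were at 0.93 and 0.44 without DMSO replicate 1, and TMX2 was not called with a fold limit of 1.2 (adjusted p = 0.096). Of 5 glutaredoxin system genes 1 rose and 0 fell, and the same counts held at an unadjusted p under 0.05 and by DESeq2, while 3 rose without DMSO replicate 1. That gene was GLRX, cytosolic glutaredoxin (0.80, adjusted p = 0.011 by edgeR, and 0.98 without that library), chosen for mention after its value was seen. Glutathione reductase, GSR, was at 0.11 over all libraries (adjusted p = 0.70 by edgeR) and at 0.30 without that library (adjusted p = 0.034 by edgeR). Of 7 enzymes that thioredoxin feeds, among them ribonucleotide reductase and the methionine sulfoxide reductases, 0 rose and 0 fell by edgeR, at an unadjusted p under 0.05 or by DESeq2, and 1 rose without DMSO replicate 1.

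Of 3 sestrins, stress proteins once thought to repair peroxiredoxins, SESN2 rose by 3.54 and SESN1 fell by 0.75 on the log2 scale (adjusted p = 0.0052 by edgeR), and without DMSO replicate 1 the values were 3.44 and -0.82. SESN1 was not called with the length slope covariate and without that library (adjusted p = 0.058 by edgeR). Of 4 proteins that bind thioredoxin or depend on it for their redox state, 0 rose and 0 fell by edgeR, by DESeq2 or at an unadjusted p under 0.05, and 1 fell without DMSO replicate 1. Among 7 factors of selenocysteine incorporation, on which all 3 reductases depend, SECISBP2 rose from 35.4 ± 2.01 to 46.6 ± 3.62 CPM (log2 fold change 0.40, adjusted p = 0.011 by edgeR) and 0 fell by edgeR (1 at an unadjusted p under 0.05, 0 by DESeq2). SECISBP2 was at 0.39 without DMSO replicate 1, where 2 of the 7 rose and 1 fell. Its call was lost with library size scaling and with no filter on low counts (adjusted p = 0.072 by edgeR in each) and with a fold limit of 1.2 (adjusted p = 0.14).

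NRF2 genes outside the system were counted in the same fits, where 9.07% of all genes rose over all libraries and 22.5% without DMSO replicate 1. Of 7 tested regulators 5 rose and 0 fell by edgeR (6 and 0 at an unadjusted p under 0.05 and by DESeq2), and 5 rose without that library. NFE2L2, which encodes NRF2, rose from 103 ± 14.8 to 166 ± 6.48 CPM. Its dimer partner MAFG rose by 1.40 on the log2 scale, MAFF by 1.12 and the competing factor BACH1 by 1.13, and MAFK (0.49), named after its value was seen, was the fifth. KEAP1, the inhibitor of NRF2, was at -0.21 (adjusted p = 0.42 by edgeR), and at -0.045 without DMSO replicate 1. Of 15 tested NRF2 targets, 8 rose and 0 fell by edgeR, with equal counts by DESeq2 and without adjustment (p under 0.05). In the fit without DMSO replicate 1, 10 of these 15 rose, beside 7 of the 10 members. Named among these are SLC7A11, the cystine importer (log2 fold change 1.61), HMOX1, heme oxygenase (1.42), GCLM, a subunit of the glutathione synthesis enzyme (1.30), and EPHX1, an epoxide hydrolase (0.52). The EPHX1 call was lost with library size scaling (adjusted p = 0.087 by edgeR), with a fold limit of 1.2 (adjusted p = 0.083) and with the length slope covariate without DMSO replicate 1 (0.26, adjusted p = 0.18 by edgeR). In the members the log2 fold change was at most 0.61 over all libraries. The targets named here were picked by size among those called, so their values cannot be set against that one. The median log2 fold change of the 15 tested targets was 0.42, beside 0.35 for the members. Without DMSO replicate 1 the medians were 0.48 and 0.58. Whether members and these targets differ was not tested.

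**Figure D4:**
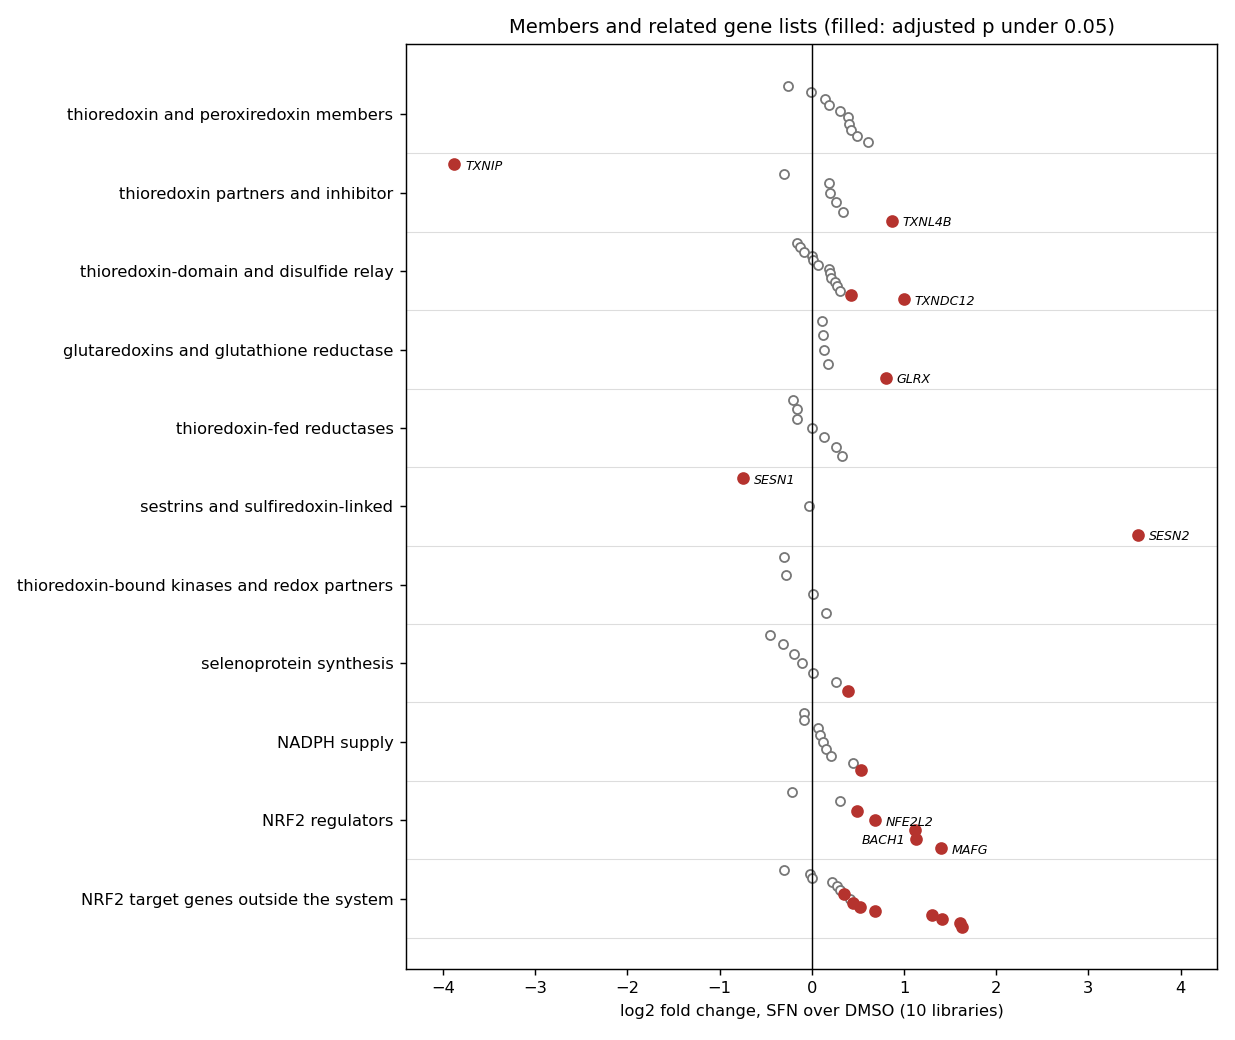
Log2 fold change of SFN over DMSO over 10 libraries (x axis) for the members (top) and each related gene list (rows), with filled points for an adjusted p under 0.05 and open points for the rest. All 10 members are open, while 5 of 7 NRF2 regulators and 8 of 15 NRF2 targets are filled, all to the right of 0. Without DMSO replicate 1, which is not plotted, 7 of 10 members, 5 regulators and 10 targets rose.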

How the data were processed

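RNA from 5 DMSO and 5 SFN replicates was sequenced. Per the study's methods, Lexogen QuantSeq reads, which come from transcript 3′ ends, were aligned with the Bluebee pipeline. The submitters' processing notes name FastQC, STAR, featureCounts and edgeR and the build GRCh38 (hg38). The authors deposited raw counts per Ensembl gene, with replicates kept separate. The counting rules are not given in the sources used here. Replicates differed by more than sampling noise (chi-square per degree of freedom 3.50 or higher).

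Genes were filtered with filterByExpr, libraries scaled by TMM, and groups compared with edgeR 4.0.16 (glmQLFit, glmQLFTest) in R 4.3.3, with Benjamini-Hochberg adjustment over all genes and a threshold of 0.05. Standard errors were derived from each log2 fold change and its F statistic, and intervals are at 95%. The length slope was fitted for each library over log2 CPM and, as an alternative, entered as a covariate. Alternatives used DESeq2 1.42.0 and limma 3.58.1. The authors' dream model with an undefined repeated measure was not run. Ratios used counts plus 0.5 and SciPy 1.17.1. In simulated counts edgeR recovered 97.0% of 200 changed genes among 13248 tested, with 3.96% of calls false (12.2% for DESeq2). Whether edgeR would recover differences as small as those of the members, with a library such as DMSO replicate 1 present, was not tested. Positions, exons and canonical transcript lengths are from GENCODE 44. Named genes are the members, TXN2, PRDX4, TXNIP, NFE2L2, KEAP1, HMOX1, and up to 4 genes a list that passed the test with no overlap and a mean of at least 5 CPM, plus neighbours and pseudogenes that share a member's reads. Members and lists were chosen with earlier results of these data known. Planned protein sequence features were not analysed here. A result for 1 related gene is not reported here.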

Additional observations from a re-analysis of the deposited data

Results flagged for a closer look

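In 74 groups of 5 replicates (the CPM of the members and of the other named genes, and the 8 ratios), 18 held a library that stood apart. In 17 of the 18 it was DMSO replicate 1. About 1 in 20 groups would hold one by chance, but all groups share the same 10 libraries. The ratios also reuse the counts of the members, so the 18 are not separate findings. Each value given is the distance from the library that stood apart to its closest replicate, as a share of the spread between the extremes of its group. For members it was 0.911 for TXN, 0.798 for TXNRD1, 0.976 for PRDX1, 0.773 for PRDX2, 0.727 for PRDX3, 0.862 for PRDX5 and 0.827 for PRDX6. DMSO replicate 1 was the highest in all of these except TXNRD1, where it was the lowest. It stood apart in the ratios of TXNRD1 to TXNRD2 (0.797), TXNRD1 to TXNRD3 (0.742), PRDX1 to PRDX2 (0.732) and PRDX1 to PRDX6 (0.743). Among related genes it did so for PRDX4 (0.906), TXN2 (0.777), GCLM (0.860), KEAP1 (0.789), TXNL4B (0.742) and MAFG (0.727). The remaining case was EPHX1 in SFN replicate 2 (0.738). TXNRD2, TXNRD3 and SRXN1 had no library that stood apart in this sense.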

How the results depend on the processing

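Counts of calls are given as members increased, then genes of the related lists increased and decreased, then all genes increased and decreased. Over all libraries by edgeR they were 0, 20, 2, 1214 and 1862. Leaving out 1 library in turn gave 0 to 7 members, 17 to 37 and 2 to 5 list genes, and 906 to 3058 and 1470 to 3193 genes, the 7 and the highest totals coming without DMSO replicate 1. Sample quality weights gave 7, 44, 6, 3874 and 4041, and the length slope covariate 5, 34, 9, 3292 and 3431, with 1 member decreased. DESeq2 called 2 members, quantile normalized limma-voom 1 and library size scaling 1, the last with 4 list genes decreased. A fold limit of 1.2 left 12 list genes and 655 genes increased, and a minimum of 5 CPM left 1 list gene decreased. A further set of analyses was added after the data were seen. Without DMSO replicate 1 and SFN replicate 2 the counts were 7, 39, 5, 3106 and 3273, and DESeq2 without DMSO replicate 1 gave 7, 40, 5, 3429 and 3176. The covariate without DMSO replicate 1 gave 4 members, 6 list genes decreased and 2159 genes increased.

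Some values changed sign. TXN was -0.053 with the covariate and -0.019 to 0.70 over the libraries left out in turn. TXNRD2, at -0.0095, was 0.0038 with RLE scaling, 0.0036 by DESeq2, 0.15 with quantile normalization, 0.11 with quality weights, 0.073 without both libraries, 0.17 by DESeq2 without DMSO replicate 1, and -0.084 to 0.15 over the libraries left out. With the covariate and without DMSO replicate 1, PRDX2 was -0.012, TXN2 -0.038 and PRDX4 -0.0079. Over the libraries left out, log2 ratio differences ran from -0.060 to 0.15 for PRDX1 to PRDX2, from -0.58 to 0.47 for SRXN1 to PRDX1 and from -0.0075 to 0.29 for TXN to TXN2. The causes were not tested. Library size scaling put the median log2 fold change of all genes at -0.11, beside -0.028 with TMM.

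Whether replicate numbers pair the samples could not be decided from the counts. Deviations of same-numbered libraries correlated at 0.0394, -0.267, -0.0605, 0.0308 and 0.484, and 2 of 10 libraries correlated best with their own number. Such deviations also carry the length slope and the difference of DMSO replicate 1, so low correlations do not exclude pairing. With the replicate number as a block, 0 members were called by edgeR and 911 genes were increased, and TXNRD2 was 0.013. SECISBP2 was not called with the block (adjusted p = 0.053). With the block and without DMSO replicate 1 the counts were 7, 34, 5, 2757 and 3020, TXNRD2 was 0.15 and SRXN1 -0.090. A sign-flip test of the ratios over 5 pairs cannot go below p = 0.0625 (exact permutation). SRXN1, with 11 to 87 counts, is the member most limited by depth.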
